A study of Mus musculus with 24 samples.

Results

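The comparison described here asks whether the N-terminal and the C-terminal fragment of p65/RelA, given together, changed gene expression by more or by less than the sum of what each did alone. It rests on 16 of the 24 arrays of the series, 4 for each of 4 transfections of the mouse leukaemia line DA1-3B Bcr-ABL+ (strain C3H eOuJ), so all groups, VOID included, also carried the BCR-ABL fusion kinase. The groups were p1-361+p363-549 (both fragments), p1-361 (the N-terminal fragment), p363-549 (the C-terminal fragment) and VOID (the empty plasmid). The labels' protocol starts the C-terminal fragment at residue 362, where the titles name it p363-549. The promoter of the plasmids and the time of harvest are not given in the sources used here. Nor do the labels say if a group's 4 samples were separate cultures or clones, and the p-values rest on the spread among these arrays, which may be technical. No deletion of the cells' own Rela is labelled in any group. Total RNA was labelled with Cy3 and hybridised to 1-colour Agilent arrays.

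p65, encoded by Rela, is a DNA-binding subunit of the NF-kB transcription factors. Its N-terminal part holds the Rel homology domain, which binds DNA, partner subunits and the IkB inhibitors, and its C-terminal part holds the transactivation domains. NF-kB induces its own inhibitors, among them IkB alpha (Nfkbia), IkB epsilon (Nfkbie) and A20 (Tnfaip3), and in myeloid cells it drives genes of cytokines, chemokines and survival proteins.

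Each level is log2 of the background-subtracted signal intensity less the array's 75th percentile. For each gene the interaction was the mean level with both fragments, minus that with p1-361, minus that with p363-549, plus that with VOID. A positive interaction means that cells with both fragments lay above the sum of the 2 single changes, and a negative one that they lay below it. Adding on the log2 scale multiplies ratios, so the sum of 2 changes is a product of 2 folds. The 13466 genes with a probe well above background on all 16 arrays were tested with limma, and a gene was called at a Benjamini-Hochberg adjusted p under 0.05. Each gene was read from a single probe. Between 49.6% and 55.5% of spots were well above background and none was saturated. Precision is limited by how many arrays there are: the median standard error of an interaction was 0.31 with 16 arrays and 0.32 with 13. The sign ± gives that standard error (SE, log2) unless another error is named.

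The arrays whose titles start with 22, 23 and 24 are replicate 4 of p1-361, p363-549 and both, and they went against their labels. Over the 200 genes that best separated the groups in the other 3 sets of title numbers, the array titled 23 correlated with the mean of the both-fragment arrays at r = 0.97 and with its own p363-549 arrays at r = -0.80. The array titled 24, labelled as both fragments, correlated with p1-361 at r = 0.71 and with its own group at r = -0.24. The array titled 22, labelled p1-361, correlated with p363-549 at r = 0.76 and with its own group at r = 0.17. These values describe resemblance among arrays that share a platform and a scale, and no array was moved to another group. Of the other 13 arrays, 9 were closest to their own group. The exceptions were replicate 3 of both and replicates 1, 2 and 3 of p363-549. These exceptions were compared with group means that include the arrays titled 22, 23 and 24, so their values do not show that they depart from their labels. Interactions are therefore given with all 16 arrays and with the 13 that remain without those 3, and list counts with 13 unless 16 is named. The 3 were singled out from their own values, so the 13-array results are no independent check of the 16-array ones.

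Parts of the probes for 7 genes described below are shown first, since each gene's level is the signal of that probe alone. Each line gives the first 30 of the probe's 60 bases, 5′ to 3′, with the probe's place in mm9.
Cd200r2, chr16:44915823-44915882, plus strand: tgagtaggtaggaagcatcctcatagatgc
Ccdc80, chr16:45127599-45127658, plus strand: ttaccaccatggatacccttactgaacaga
Igsf5, chr16:96625576-96625635, plus strand: gccagcatcatgaaagaactggagagagac
Lyz1, chr10:116724862-116724921, minus strand: ccaataaccacaggagcaaatctaatctca
Gzmc, chr14:56850307-56850366, minus strand: gatgaaacacagctaactacaagaagcaaa
Gzmb, chr14:56877916-56877975, minus strand: ccccgagaatgttatctaatgctagtcatc
Fcer1g, chr1:173159794-173159853, minus strand: aggtccccatctccgttaaagacttactca
The pairs Gzmb and Gzmc, Lyz1 and Lyz2, and Hbb-bt and Hbb-b2 are close copies, and a probe may also bind a copy's RNA.

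Rela itself was higher on every array with a construct than on any VOID array. Its level was 4.93, 4.85, 4.79 and 4.79 with both fragments, 4.78, 4.72, 4.81 and 4.87 with p1-361, and 4.79, 4.86, 4.80 and 4.99 with p363-549, against 4.33, 4.24, 4.43 and 4.50 with VOID. None of the 12 arrays with a fragment overlapped VOID, and the 3 fragment groups overlapped each other. The change over VOID was 0.47 ± 0.11 (SE, log2) with both fragments, and it did not pass the test with 16 arrays (adjusted p = 0.0575) but did with 13 (0.48 ± 0.12, adjusted p = 0.0306). The interaction was -0.44 ± 0.16 (adjusted p = 0.432) with 16 arrays and -0.36 ± 0.17 (adjusted p = 0.198) with 13. The Rela probe starts at base 2648 of the transcript, and whether the plasmids carry that stretch is not given in the sources used here. The mouse genes named in the fusion kinase gave interactions of -0.38 ± 0.28 for Bcr (adjusted p = 0.546) and 0.33 ± 0.32 for Abl1 (adjusted p = 0.645), neither called. Their probes start at base 4213 of the Bcr transcript and base 6203 of the Abl1 transcript. Whether the RNA of the fusion carries those stretches is not given in the sources used here, so these values may not measure the fusion.

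With all 16 arrays, 4 genes showed an interaction. Cd200r2, a CD200 receptor family member, and Ccdc80, a secreted matrix protein, lay above the sum (0.0149% of the genes tested). Igsf5, an immunoglobulin superfamily adhesion protein, and Lyz1, a lysozyme, lay below it (0.0149%). In all 4 genes the VOID arrays lay apart from the other 12. For Cd200r2 and Ccdc80 each fragment alone gave most of the change seen with both, and for Igsf5 and Lyz1 the mean with both fragments lay nearer to VOID than either single mean. For Cd200r2 and Ccdc80 the 2 single changes would add up to a level below the lowest shown here for any gene (-4.39, Fcer1g). Whether the low end of the arrays' range had a part in these 2 interactions was not tested. Of the 13466 genes tested, 1546 had an unadjusted p under 0.05 for the interaction in limma's fit, which many would meet by chance over so many tests.

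Cd200r2 had levels of -2.37, -2.91, -2.06 and -1.98 with both fragments, -0.90, -1.20, -1.38 and -1.64 with p1-361, and -1.61, -1.91, -1.77 and -2.88 with p363-549, against 2.31, 1.93, 2.64 and 2.18 with VOID. Every array with a fragment lay more than 2 log2 units below every VOID array. The p363-549 arrays overlapped both other fragment groups, and the arrays with both fragments lay below all p1-361 arrays. Its change over VOID was -4.60 ± 0.28 with both, -3.55 ± 0.28 with p1-361 and -4.31 ± 0.28 with p363-549. The interaction was 3.26 ± 0.39 (adjusted p = 0.00490) with 16 arrays and 2.74 ± 0.32 (adjusted p = 0.000673) with 13. It was called in all 16 fits that left out 1 array. Ccdc80 had levels of -2.19, -2.30, -2.44 and -1.68 with both fragments, -1.85, -1.68, -1.84 and -1.17 with p1-361, and -2.21, -1.62, -1.96 and -2.58 with p363-549, against 0.34, 0.86, 0.95 and 1.00 with VOID. No fragment array reached the VOID range. The interaction of Ccdc80 was 2.36 ± 0.33 (adjusted p = 0.0177) with 16 arrays and 2.20 ± 0.27 (adjusted p = 0.00103) with 13. Its call was lost (highest adjusted p = 0.0704) without replicate 1 of both, p1-361 or p363-549, without replicates 2 or 3 of p1-361, and without replicates 2 or 4 of VOID.

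Igsf5 and Lyz1 moved the other way. Igsf5 had levels of -1.52, -1.76, -1.48 and -0.68 with both fragments, 0.01, 0.23, -0.12 and -0.94 with p1-361, and -0.79, -0.72, -0.91 and -1.42 with p363-549, against -2.56, -2.57, -1.78 and -2.26 with VOID. VOID held the 4 lowest arrays, and among the 13 arrays p1-361 was highest, p363-549 next and both fragments between p363-549 and VOID, with no overlap between the 4 groups (-1.76 with both and -1.78 with VOID were the nearest arrays). The interaction was -2.48 ± 0.40 (adjusted p = 0.0415) with 16 arrays and -3.11 ± 0.28 (adjusted p = 8.99e-05) with 13. Lyz1 had levels of -2.70, -2.58, -2.57 and -1.55 with both fragments, -1.59, -1.32, -0.96 and -1.53 with p1-361, and -1.88, -1.74, -1.32 and -2.27 with p363-549, against -3.24, -3.29, -3.01 and -2.93 with VOID. VOID was lowest here too, and the array titled 24 lay more than 1 log2 unit above the other both-fragment arrays. The interaction of Lyz1 was -2.32 ± 0.35 (adjusted p = 0.0335) with 16 arrays and -2.80 ± 0.27 (adjusted p = 0.000128) with 13. With 16 arrays Igsf5 was called in 4 of the 16 fits that left out 1 array (replicate 4 of any fragment group, or replicate 3 of VOID), and Lyz1 in 3 of them (replicate 4 of any fragment group).

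**Figure D1:**
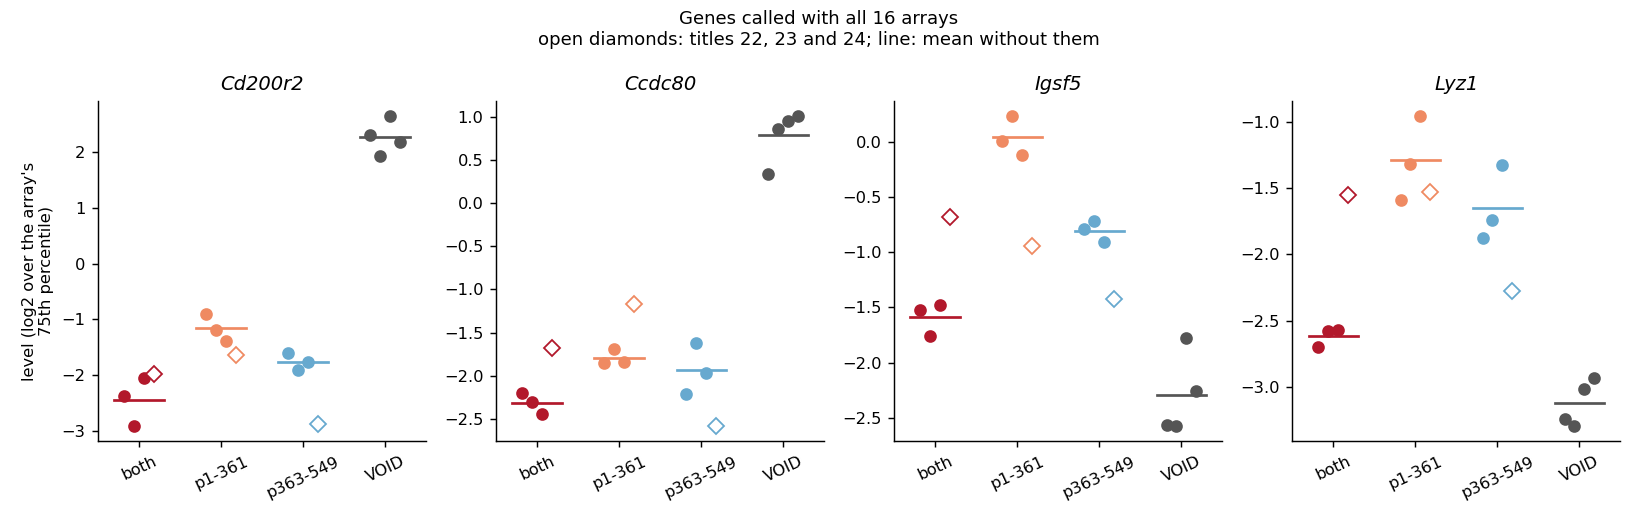
Level of Cd200r2, Ccdc80, Igsf5 and Lyz1 on each of the 16 arrays (log2 over the array's 75th percentile), grouped by transfection, with open diamonds for the arrays titled 22, 23 and 24 and a line for the mean without them. VOID lies apart in all 4 panels, above the other arrays for Cd200r2 and Ccdc80 and below them for Igsf5 and Lyz1.

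The single steps of the design gave few calls with 16 arrays: 157 genes for both against VOID (1.17%), 17 for p1-361 against VOID (0.126%) and 10 for p363-549 against VOID (0.0743%). No gene was called for both against p1-361 (0%) or for both against p363-549 (0%) by limma, where 2214 and 2193 genes had an unadjusted p under 0.05. With 13 arrays the counts were 891 for both against VOID (6.62%), 165 for p1-361 against VOID (1.23%) and 24 for p363-549 against VOID (0.178%). Both against p1-361 then gave 1082 genes (8.04%) and both against p363-549 gave 1425 (10.6%). These comparisons share arrays with each other and with the interaction.

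Without the arrays titled 22, 23 and 24, 913 genes showed an interaction, 372 above the sum (2.76%) and 541 below it (4.02%). The 4 genes called with 16 arrays were among them, and 3740 genes had an unadjusted p under 0.05. All 913 had the same sign with 16 arrays. Those 16 include every array of the fit that picked the 913, so the shared sign is no check of the calls. The size of the interaction was at least 1 log2 unit in 240 of the genes above the sum (median 1.16) and in 441 of those below it (median -1.43). Over all 13466 genes tested, 1814 reached that size in either direction, and the signed median was -0.03. A call depends on size, so large values among called genes follow from the test. In 342 of the 372 and 483 of the 541, neither fragment alone was called against VOID. Having neither call holds for most genes tested, since over all of them p1-361 was called in 1.23% and p363-549 in 0.178%. Single calls were more common among the 913: p1-361 in 29 of the 372 and 56 of the 541, and p363-549 in 8 and 11. The interaction contains the single changes, so this is a description. The 3 both-fragment arrays lay above all 10 others in 189 of the 372 genes above the sum, where 5.78% of all genes tested did so. They lay below all 10 others in 246 of the 541 genes below the sum, where 4.49% of all genes did. The shape of the first 4 genes also occurred among them: VOID lay above the other 9 arrays in 12 of the 372 (0.705% of all genes) and below them in 12 of the 541 (0.757% of all genes). Which arrays lie apart is part of what the interaction measures, so these counts are descriptions.

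The count of 913 moved with single arrays and with slide and brightness as terms of the fit. It was 1422 with the spread taken from all 24 arrays and 3955 with the sets of 6 consecutive title numbers as a block. It was 260 without both-fragment replicate 1 and 3204 without both-fragment replicate 3. The latter array correlated with the p363-549 mean at r = 0.60 and with its own group at r = 0.42, where those means include the arrays titled 23 and 24. The both-fragment arrays also included the brightest, with a 75th percentile of 845 to 1223 intensity units, against 648 to 883 for p1-361, 641 to 703 for p363-549 and 674 to 928 for VOID among the 13 arrays. With log2 of that percentile as a covariate the counts were 1 gene with 16 arrays and 129 with 13, 47 above and 82 below the sum. With the slide as a fixed block they were 1 with 16 arrays and 14 with 13 arrays, on few residual degrees of freedom. That fit combines slides, since no single slide held all 4 transfections and the interaction could not be had inside 1 slide. The part of brightness and slide in the result was not tested. Normexp background correction gave 2 genes, both above the sum, with 16 arrays, and 261 with 13.

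**Figure D2:**
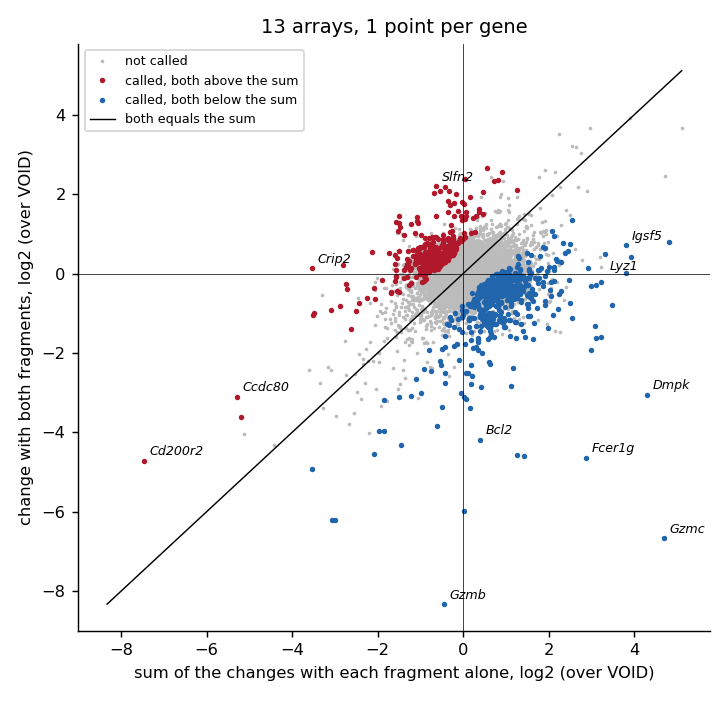
Change over VOID with both fragments (y axis, log2) against the sum of the changes with each fragment alone (x axis, log2), 13 arrays, 1 point per gene for 13466 genes. The 372 genes called above the sum lie over the diagonal and the 541 called below it lie under it, with Gzmc, Gzmb, Fcer1g and Dmpk far under it and Cd200r2 and Ccdc80 over it at the left.

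The largest interactions with 13 arrays were in genes with low levels on the 3 arrays with both fragments. Gzmc, a granzyme of cytotoxic granules, had levels of -3.92, -3.60, -3.31 and 5.37 with both fragments, 4.85, 5.29, 5.97 and 5.30 with p1-361, and 4.89, 5.43, 5.96 and -3.35 with p363-549, against 2.02, 2.85, 3.76 and 3.60 with VOID. The last value of the both-fragment group and the last of p363-549 are the arrays titled 24 and 23, and each lay in the range of the other's group. The array titled 24, at 5.37, lay in the range of p1-361 as well (4.85 to 5.97). Without the 3 arrays, Gzmc averaged -3.61 ± 0.30 with both (SD, n = 3), 5.37 ± 0.56 with p1-361 (n = 3) and 5.43 ± 0.53 with p363-549 (n = 3), against 3.06 ± 0.80 with VOID (n = 4). Each fragment alone raised it, by 2.32 ± 0.41 with p1-361 (adjusted p = 0.0147) and by 2.37 ± 0.41 with p363-549 (adjusted p = 0.0429), and with both together it changed by -6.66 ± 0.41 (adjusted p = 5.75e-07). The interaction was -11.35 ± 0.60 (adjusted p = 9.01e-07) with 13 arrays and -6.89 ± 2.79 (adjusted p = 0.432) with 16.

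Gzmb, a second granzyme, had -2.90, -2.68, -2.69 and 5.21 with both fragments, 4.05, 5.02, 5.52 and 6.10 with p1-361, and 4.92, 6.13, 6.46 and -2.71 with p363-549, against 4.07, 6.01, 6.32 and 5.88 with VOID. Here neither fragment alone was called, and the interaction was -7.88 ± 0.76 (adjusted p = 0.000142) with 13 arrays and -4.07 ± 2.64 (adjusted p = 0.507) with 16. Fcer1g, the signalling chain shared by Fc receptors of myeloid cells, had -4.12, -4.39, -3.36 and 3.63 with both fragments, 3.47, 3.71, 3.56 and 1.11 with p1-361, and 0.32, 0.87, 0.77 and -3.73 with p363-549, against 0.25, 0.90, 0.79 and 0.77 with VOID. Among the 13 arrays p1-361 lay above all others and both fragments below all others, while p363-549 and VOID overlapped. The change over VOID was 2.91 ± 0.24 with p1-361 (adjusted p = 5.20e-05) and -4.64 ± 0.24 with both (adjusted p = 2.01e-07), and the interaction was -7.52 ± 0.36 (adjusted p = 5.31e-07), against -3.91 ± 2.01 (adjusted p = 0.446) with 16 arrays. Dmpk, a protein kinase, was likewise lowest on the 3 both-fragment arrays and highest with p1-361, with an interaction of -7.35 ± 0.60 (adjusted p = 3.91e-05, and -4.26 ± 1.65 with 16 arrays, adjusted p = 0.432). Saa3, an acute phase protein, and the unnamed probe A_55_P1953783 gave -5.98 ± 1.08 (adjusted p = 0.00936, and -2.81 ± 1.96 with 16 arrays, adjusted p = 0.533) and -6.0 ± 0.33 (adjusted p = 1.06e-06, and -3.81 ± 1.45 with 16 arrays, adjusted p = 0.432).

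The apoptosis regulators counted 0 genes above and 2 below the sum of 31 tested. Bcl2, which blocks mitochondrial apoptosis, had -0.44, -0.74, -0.42 and 2.31 with both fragments, 3.24, 3.05, 3.60 and 3.65 with p1-361, and 4.23, 4.09, 4.86 and -0.78 with p363-549, against 3.67, 3.79, 3.88 and 3.26 with VOID. The 3 both-fragment arrays lay over 3 log2 units below the other 10, and the array titled 23 lay with them. Its interaction was -4.58 ± 0.32 (adjusted p = 8.57e-06) with 13 arrays and -2.66 ± 1.32 (adjusted p = 0.442) with 16. Casp4, the mouse gene of inflammatory caspase-11, had another shape: 3.54, 3.48, 3.51 and 3.04 with both fragments, 3.39, 3.28, 3.54 and 3.18 with p1-361, and 3.43, 3.16, 3.79 and 3.67 with p363-549, against 2.22, 2.01, 2.44 and 1.98 with VOID. All 12 fragment arrays lay above VOID, and the 3 fragment groups overlapped each other. Its interaction was -1.19 ± 0.25 (adjusted p = 0.0190) with 13 arrays and -1.30 ± 0.24 (adjusted p = 0.0787) with 16, and a second probe gave -1.06 and -1.20.

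Above the sum, the 6 largest of the genes called only with 13 arrays ran from 2.77 to 3.68. Crip2, a LIM domain protein, had -1.78, -1.15, -1.64 and -3.42 with both fragments, -3.29, -3.84, -3.40 and -3.15 with p1-361, and -3.31, -3.39, -3.38 and -2.82 with p363-549, against -1.17, -1.91, -1.50 and -2.07 with VOID. It fell with each fragment alone, with changes of -1.85 ± 0.23 (p1-361, adjusted p = 0.00170) and -1.70 ± 0.23 (p363-549, adjusted p = 0.00824), while 3 of the 4 arrays with both fragments, at -1.78 to -1.15, lay at the levels of VOID. Its interaction was 3.68 ± 0.34 (adjusted p = 8.99e-05) with 13 arrays and 2.98 ± 0.52 (adjusted p = 0.0710) with 16. As for Cd200r2, the 2 single changes of Crip2 would add up to a level below the lowest shown here, and the part of this was not tested. Slfn2, a Schlafen gene of immune cells, was instead high on the 3 both-fragment arrays and the array titled 23. Its levels with both were -0.66, -0.52, -1.25 and -2.97, against -3.11, -3.16, -2.73 and -3.95 with p1-361, -3.55, -4.03, -3.39 and -0.68 with p363-549, and -2.75, -2.84, -3.14 and -3.31 with VOID. Its interaction was 2.84 ± 0.33 (adjusted p = 0.000673) with 13 arrays and 1.79 ± 0.87 (adjusted p = 0.440) with 16. Cxcr2, a receptor of neutrophil chemokines, gave 2.94 ± 0.39 (adjusted p = 0.00150, and 1.98 ± 0.80 with 16 arrays, adjusted p = 0.432), and its both-fragment arrays at 0.05, -0.04 and 0.22 stood above all 10 others. Lpgat1, a lysophospholipid acyltransferase, gave 3.03 ± 0.53 (adjusted p = 0.00781, and 1.71 ± 0.88 with 16 arrays, adjusted p = 0.446), with 2.33 at a second probe. Slc32a1, a vesicular transporter of inhibitory amino acids, gave 2.89 ± 0.67 (adjusted p = 0.0286, and 2.03 ± 0.73 with 16 arrays, adjusted p = 0.432) and 1110002E22Rik gave 2.77 ± 0.63 (adjusted p = 0.0262, and 2.03 ± 0.75 with 16 arrays, adjusted p = 0.432), and each was called in 6 of the 13 fits that left out 1 array.

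**Figure D3:**
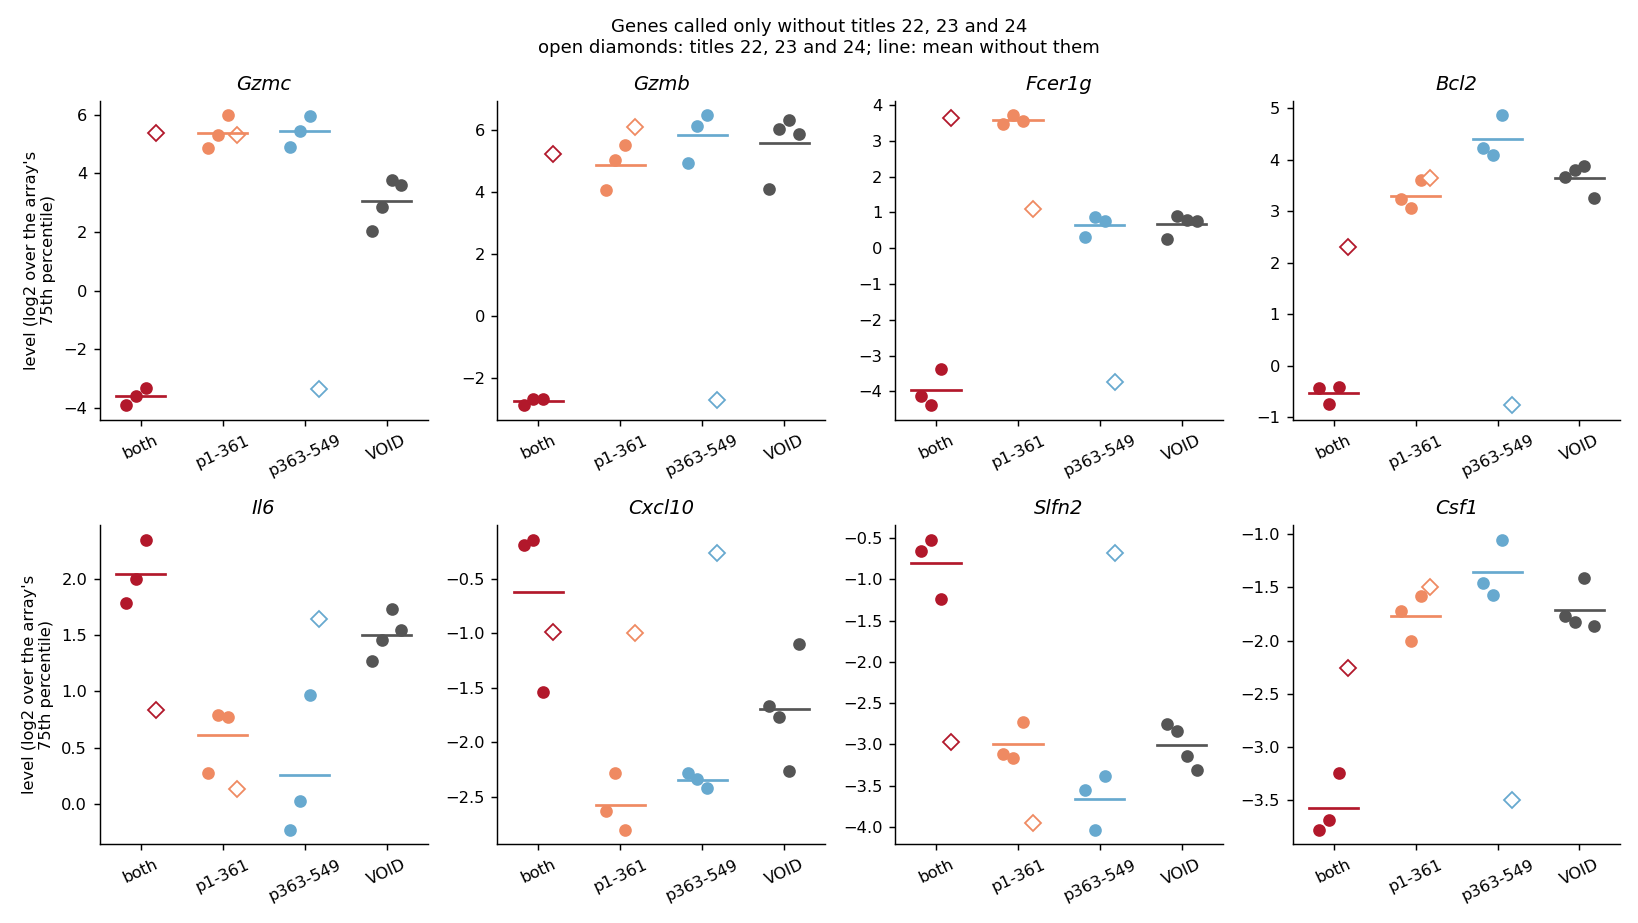
Level on each of the 16 arrays (log2 over the array's 75th percentile) of 8 genes called only without the arrays titled 22, 23 and 24 (open diamonds), by transfection, with a line for the mean without them. The filled both-fragment points lie below all other filled points for Gzmc, Gzmb, Fcer1g, Bcl2 and Csf1 and above them for Il6 and Slfn2, overlap VOID for Cxcl10, and the diamond of p363-549 lies near them in each panel.

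Of 60 named genes, 51 were called with 13 arrays, against 2.76% of all genes called above and 4.02% below the sum. That share follows from the naming, since all but Rela, Abl1, Bcr and the NF-kB feedback genes were named for being called. Of the 51, 28 were called in all 13 fits that left out 1 array. They were picked for size or small p, so this count does not stand for all called genes. Cd200r2, Igsf5, Crip2, Slfn2, Gzmc, Gzmb, Fcer1g, Dmpk, Bcl2 and A_55_P1953783 were also called in all 15 other settings with 13 arrays. On a linear scale of intensity 50 of the 51 kept their sign. The exception was Cma1, a mast cell chymase, whose interaction was -3.21 ± 0.51 (adjusted p = 0.00490, and -0.38 ± 1.60 with 16 arrays, adjusted p = 0.933) on the log2 scale and positive, at 29.7% of the VOID level, on the linear scale.

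NF-kB target genes as a list did not move to one side: with 13 arrays 3 lay above and 2 below the sum of 33 tested, with a median interaction of -0.02 (-0.07 with 16 arrays, none called). Il6, an inflammatory cytokine, had 1.78, 2.00, 2.35 and 0.83 with both fragments, 0.28, 0.79, 0.77 and 0.13 with p1-361, and -0.23, 0.03, 0.96 and 1.64 with p363-549, against 1.27, 1.46, 1.74 and 1.55 with VOID. The 3 both-fragment arrays lay above the other 10, the lowest of them at 1.78 against 1.74 for the highest VOID array, and its change over VOID with both was 0.54 ± 0.26 (adjusted p = 0.272). Its interaction was 2.68 ± 0.39 (adjusted p = 0.00239) with 13 arrays and 2.15 ± 0.52 (adjusted p = 0.363) with 16. Cxcl10, an interferon-induced chemokine, had -0.19, -0.14, -1.54 and -0.99 with both fragments, -2.63, -2.28, -2.80 and -1.0 with p1-361, and -2.28, -2.34, -2.42 and -0.26 with p363-549, against -1.66, -1.77, -2.27 and -1.10 with VOID. Both-fragment replicate 3 overlapped VOID, and the interaction was 2.60 ± 0.49 (adjusted p = 0.0106) with 13 arrays and 1.59 ± 0.70 (adjusted p = 0.432) with 16. Tnfaip2 gave 0.84 ± 0.22 (adjusted p = 0.0439, and 0.34 ± 0.38 with 16 arrays, adjusted p = 0.702).

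On the other side, Csf1, the macrophage colony-stimulating factor, had -3.78, -3.70, -3.24 and -2.26 with both fragments, -1.72, -2.0, -1.58 and -1.5 with p1-361, and -1.46, -1.57, -1.05 and -3.51 with p363-549, against -1.77, -1.82, -1.41 and -1.86 with VOID. It was low on the 3 both-fragment arrays and on the array titled 23, with an interaction of -2.17 ± 0.28 (adjusted p = 0.00115) with 13 arrays and -1.37 ± 0.60 (adjusted p = 0.432) with 16. Ccl4, a chemokine, gave -2.45 ± 0.54 (adjusted p = 0.0222, and -0.84 ± 1.11 with 16 arrays, adjusted p = 0.749). Among 40 genes of the pathway itself, Ripk1, a kinase that relays TNF receptor signals, lay above the sum (1.02 ± 0.26, adjusted p = 0.0409, and 0.63 ± 0.30 with 16 arrays, adjusted p = 0.435) and none below it, with a list median of 0.01. Among 18 chemokines and cytokines, 2 lay above and 3 below, the fifth being Osm, at -2.03 ± 0.44 (adjusted p = 0.0218, and -1.12 ± 0.71 with 16 arrays, adjusted p = 0.496).

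The 6 feedback genes of NF-kB were called in neither fit. Nfkbie had levels of 1.39, 1.53, 1.64 and 0.51 with both fragments, 1.05, 0.65, 1.01 and 0.60 with p1-361, and 0.58, 0.57, 1.20 and 1.24 with p363-549, against 0.09, 0.05, 0.29 and 0.16 with VOID. All fragment arrays lay above VOID, and with 13 arrays the change over VOID was 1.37 ± 0.18 with both (adjusted p = 0.000418), 0.75 ± 0.18 with p1-361 (adjusted p = 0.0700) and 0.64 ± 0.18 with p363-549 (adjusted p = 0.335). Its interaction was -0.02 ± 0.26 (adjusted p = 0.972) with 13 arrays and -0.31 ± 0.33 (adjusted p = 0.683) with 16. On a linear scale of intensity the Nfkbie interaction with 13 arrays was positive, at 30.9% of the VOID level. The others of the 6 kept their log2 sign on that scale with 13 arrays, with Nfkb2 at 98.9%. With 13 arrays Tnip1, an A20-binding inhibitor, gave -0.29 ± 0.26 (adjusted p = 0.481, and -0.43 ± 0.25 with 16 arrays, adjusted p = 0.462), Tnfaip3 0.03 ± 0.40 (adjusted p = 0.967, and -0.14 ± 0.42 with 16 arrays, adjusted p = 0.9), Nfkbia -0.16 ± 0.36 (adjusted p = 0.798, and -0.16 ± 0.47 with 16 arrays, adjusted p = 0.901) and Birc3, an inhibitor of apoptosis, 0.21 ± 0.24 (adjusted p = 0.584, and -0.05 ± 0.37 with 16 arrays, adjusted p = 0.965). Nfkb2, a precursor subunit of the alternative pathway, gave 0.78 ± 0.30 (adjusted p = 0.118, and 0.30 ± 0.42 with 16 arrays, adjusted p = 0.761), with 1.65, 1.67, 0.98 and 0.91 with both fragments, 0.37, 0.50, 0.38 and 0.32 with p1-361, and 0.49, 0.16, 0.85 and 1.98 with p363-549, against 0.40, 0.37, 0.24 and 0.04 with VOID. Its both-fragment arrays lay above VOID and p1-361. The standard errors of these 6 ran from 0.24 to 0.40 with 13 arrays and from 0.25 to 0.47 with 16. An interaction that misses the threshold does not show that the 2 changes added up.

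**Figure D4:**
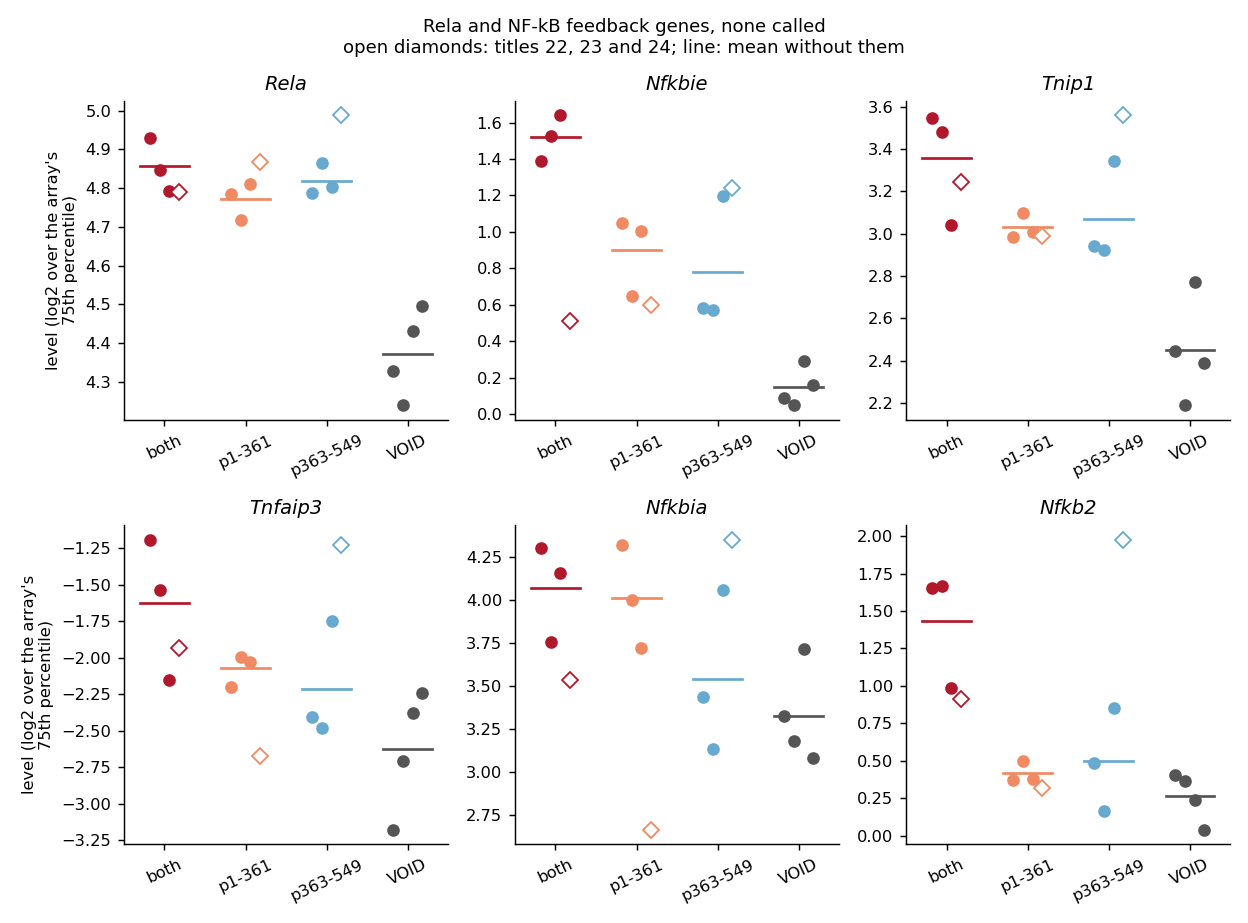
Level on each of the 16 arrays (log2 over the array's 75th percentile) of Rela and 5 NF-kB feedback genes by transfection, with open diamonds for the arrays titled 22, 23 and 24 and a line for the mean without them. All 12 fragment arrays lie above the 4 VOID arrays for Rela, Nfkbie and Tnip1, and the interaction was not called for any of the 6.

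The promoters of Il6 and Cxcl10, which lay above the sum, and of Nfkbia, which was not called, are shown because all 3 hold a match to the kappa-B consensus, searched by that name on both strands. Capitals mark the matches, which may overlap. The sequences are RefSeq's on GRCm38.p6, 300 bases around the gene's start, on the gene's strand.
Il6, chr5:30012864-30013163, plus strand: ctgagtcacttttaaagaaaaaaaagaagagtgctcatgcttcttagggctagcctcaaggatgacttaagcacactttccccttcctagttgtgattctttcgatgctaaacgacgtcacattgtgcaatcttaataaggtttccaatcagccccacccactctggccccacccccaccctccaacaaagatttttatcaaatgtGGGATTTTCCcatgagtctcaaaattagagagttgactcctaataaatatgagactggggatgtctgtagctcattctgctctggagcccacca
Cxcl10, chr5:92348840-92349139, minus strand: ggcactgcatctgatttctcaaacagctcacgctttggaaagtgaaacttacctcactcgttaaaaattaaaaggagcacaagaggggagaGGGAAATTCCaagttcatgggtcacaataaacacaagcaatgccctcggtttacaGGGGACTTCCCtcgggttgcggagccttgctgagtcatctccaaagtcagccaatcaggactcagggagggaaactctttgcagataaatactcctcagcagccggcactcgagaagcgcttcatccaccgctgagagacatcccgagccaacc
Nfkbia, chr12:55492598-55492897, minus strand: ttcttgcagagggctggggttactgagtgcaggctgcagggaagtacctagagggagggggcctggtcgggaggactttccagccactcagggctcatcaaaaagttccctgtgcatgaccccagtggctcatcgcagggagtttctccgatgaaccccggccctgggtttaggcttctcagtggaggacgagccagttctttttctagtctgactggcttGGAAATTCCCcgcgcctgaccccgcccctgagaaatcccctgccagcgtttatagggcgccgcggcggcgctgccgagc
Of 32851 such promoters 8.46% hold a match. A match is only a run of letters, and it was present in a gene with an interaction of 2.68 and in one at -0.16.

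Of 36 interferon-stimulated genes, 10 lay above the sum with 13 arrays and none below, the most calls of the 18 pathway lists in that fit, from 0.86 to 2.60, with a list median of 0.43 (0.19 with 16 arrays, where none was called). Cxcl10 is 1 of the 10. Isg15, a ubiquitin-like protein, gave 2.03 ± 0.44 (adjusted p = 0.0213, and 1.07 ± 0.62 with 16 arrays, adjusted p = 0.470), Oasl1 2.35 ± 0.55 (adjusted p = 0.0283, and 1.49 ± 0.64 with 16 arrays, adjusted p = 0.432) and Mx2 1.78 ± 0.38 (adjusted p = 0.0206, and 1.01 ± 0.63 with 16 arrays, adjusted p = 0.491). Parp9, an ADP-ribosyltransferase family member, had 0.07, 0.18, -0.22 and -0.94 with both fragments, -1.20, -0.95, -1.06 and -1.15 with p1-361, and -1.07, -1.11, -0.90 and 0.08 with p363-549, against -0.78, -0.46, -0.66 and -0.72 with VOID. Its 3 both-fragment arrays lay above the other 10, and the interaction was 1.45 ± 0.21 (adjusted p = 0.00282, and 0.96 ± 0.37 with 16 arrays, adjusted p = 0.432). Samd9l, at 0.86 ± 0.18 (adjusted p = 0.0164, and 0.54 ± 0.26 with 16 arrays, adjusted p = 0.438), was the smallest of the 10. Calls above the sum numbered 4 with normexp and 9 with quantile normalization, and from 0 to 16 over all alternatives with 13 arrays. Scaled on detected probes, 10 lay above and 1 below, and 11 ribosomal protein genes were then called. The list's median was above 0 in each of the alternatives run, from 0.34 to 0.58 with 13 arrays and from 0.06 to 0.38 with 16.

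Of 26 genes that respond to BCR-ABL and STAT5 signalling, 4 lay below the sum and none above (median -0.47). Cish, a STAT5-induced inhibitor of cytokine signalling, gave -2.26 ± 0.53 (adjusted p = 0.0302, and -1.56 ± 0.64 with 16 arrays, adjusted p = 0.432). Socs3, of the same family, gave -1.41 ± 0.27 (adjusted p = 0.0122, and -1.11 ± 0.38 with 16 arrays, adjusted p = 0.432), with -0.28, -0.40, -0.18 and 0.29 with both fragments, 0.43, 0.35, 0.35 and 0.94 with p1-361, and 1.16, 1.27, 1.5 and 0.14 with p363-549, against 0.08, 0.55, 0.89 and 0.78 with VOID. The 3 both-fragment arrays were the lowest of the 13. Id1, an inhibitor of basic helix-loop-helix factors, gave -1.21 ± 0.22 (adjusted p = 0.00992, and -0.80 ± 0.32 with 16 arrays, adjusted p = 0.432), and Osm, named above, is the fourth.

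Ribosomal protein genes had few calls but a shared sign. With 13 arrays none of 73 lay above the sum and 2 lay below, Rps15 (-1.29 ± 0.22, adjusted p = 0.00707, and -0.91 ± 0.27 with 16 arrays, adjusted p = 0.432) and Rpl22 (-1.30 ± 0.30, adjusted p = 0.0292, and -0.93 ± 0.32 with 16 arrays, adjusted p = 0.432), while all 73 interactions were negative, with a median of -0.71 (-0.51 with 16 arrays). Quantile normalization cut the median to -0.08 with 13 arrays and -0.03 with 16, with 31.5% and 35.6% of the genes positive. Immediate early and AP-1 genes had a median of -0.69 (-0.11 with array brightness as a covariate) and 2 of 25 genes below the sum: Zfp36l2, an RNA-decay factor, at -1.55 ± 0.20 (adjusted p = 0.00110, and -1.17 ± 0.29 with 16 arrays, adjusted p = 0.393) and Btg2, an antiproliferative gene, at -1.50 ± 0.33 (adjusted p = 0.0229, and -0.76 ± 0.67 with 16 arrays, adjusted p = 0.617). Btg2 is also 1 of 2 p53 targets called below of 26 (median -0.37, and 0.03 with brightness), with Zmat3 at -0.94 ± 0.23 (adjusted p = 0.0317, and -0.64 ± 0.25 with 16 arrays, adjusted p = 0.432).

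DNA replication genes leaned the other way, with a median of 0.75 and 37 of 42 positive, but only Pola1, a DNA polymerase subunit, was called (1.35 ± 0.36, adjusted p = 0.0466, and 0.94 ± 0.42 with 16 arrays, adjusted p = 0.432). With array brightness as a covariate the median of that list was -0.32. Among G2 and mitosis genes (median 0.51), Spc24, a kinetochore protein, lay above the sum (1.85 ± 0.41, adjusted p = 0.0232, and 1.28 ± 0.48 with 16 arrays, adjusted p = 0.432), 1 of 38. Heat shock chaperones (median 0.49, and 0.08 with brightness) had Hspa14 at 0.96 ± 0.25 (adjusted p = 0.0439, and 0.66 ± 0.28 with 16 arrays, adjusted p = 0.432), 1 of 26, and it was called in 2 of the 13 fits that left out 1 array, as were Pola1 and Psat1. Among 33 genes of glycolysis and the hypoxia response (median -0.54, and 0.43 with the brightness covariate), Hif1a, the hypoxia-responsive factor itself, was the one gene called, and it lay above the sum (1.00 ± 0.18, adjusted p = 0.00970, and 0.72 ± 0.22 with 16 arrays, adjusted p = 0.432). Oxidative phosphorylation had 3 above and 1 below of 67 (median 0.27), among them Ndufs3 of complex I (0.71 ± 0.17, and 0.50 ± 0.20 with 16 arrays, adjusted p = 0.432), Sdha of complex II (0.76 ± 0.20, and 0.48 ± 0.23 with 16 arrays, adjusted p = 0.435) and, below, Atp5d of ATP synthase (-0.72 ± 0.18, and -0.46 ± 0.21 with 16 arrays, adjusted p = 0.432). Of 32 genes of cholesterol and fatty acid synthesis, Idi1, an isoprenoid isomerase, lay above the sum (1.58 ± 0.42, adjusted p = 0.0447, and 0.77 ± 0.65 with 16 arrays, adjusted p = 0.594). The unfolded protein and integrated stress response counted 1 of 36 above, Psat1 of serine synthesis (1.02 ± 0.27, adjusted p = 0.0439, and 0.76 ± 0.29 with 16 arrays, adjusted p = 0.432), and 1 below, Cebpb, a stress-responsive factor (-1.29 ± 0.27, adjusted p = 0.0194, and -0.72 ± 0.38 with 16 arrays, adjusted p = 0.448). No gene was called among 20 of MHC class I presentation (median -0.49) or 7 of class II (median -0.23). These counts stand beside 2.76% of all genes called above and 4.02% called below the sum, and no list was tested as a set.

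**Figure D5:**
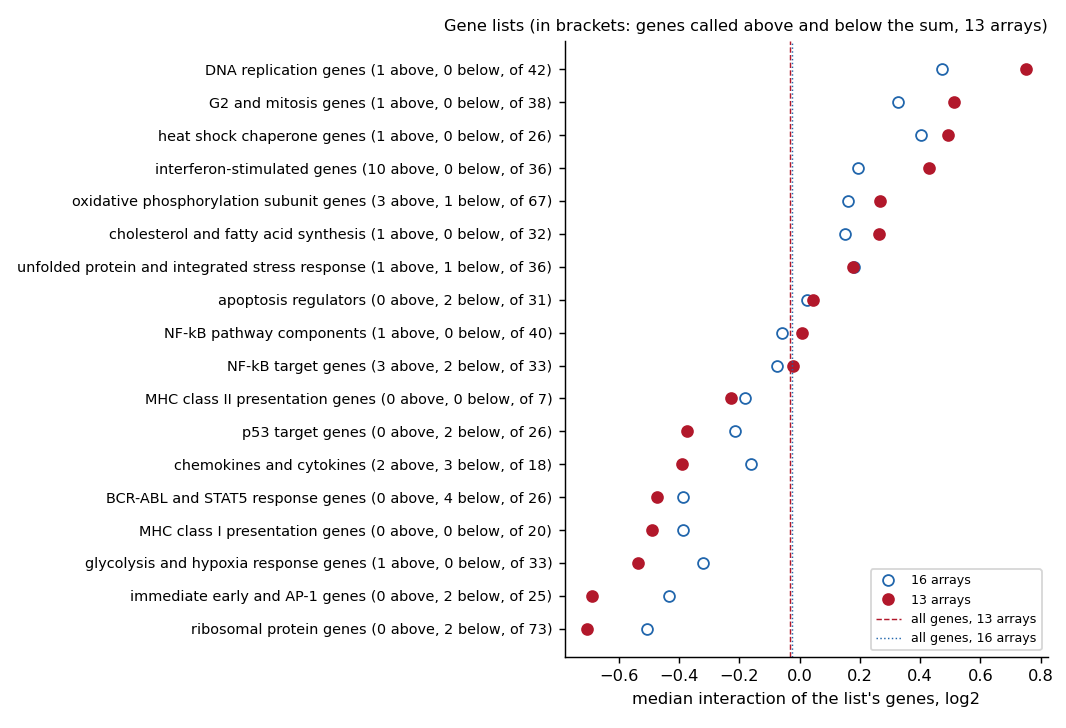
Median interaction (log2) of the genes of 18 pathway lists, filled for 13 arrays and open for 16, with dashed and dotted lines for all genes tested and counts called above and below the sum in brackets. The lists run from -0.71 (ribosomal protein genes) to 0.75 (DNA replication genes), with NF-kB target genes at -0.02 beside the median of all genes.

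The summed levels of the myeloid list and of the mast cell and basophil list were lower with both fragments than with VOID on every one of the 4 arrays of each, and those of the other 6 marker lists overlapped. The myeloid sums with p363-549 also lay below VOID on all 4 arrays, so this was not particular to both fragments. For the mast cell and basophil list the nearest arrays were at 109.0 with both fragments and 109.2 with VOID. Of 18 myeloid markers measured, 14 were well above background on all 16 arrays, and Cd33 and Cebpa were so on none. The summed level of the list, in multiples of the array's 75th percentile, was 120 to 181 with both fragments, 205 to 236 with p1-361 and 120 to 229 with p363-549, against 232 to 298 with VOID. Itgam, an integrin of myeloid cells, gave -1.68 ± 0.42 (adjusted p = 0.0347, and -1.11 ± 0.48 with 16 arrays, adjusted p = 0.432), and with Fcer1g it made 2 of 14 genes below the sum and none above. Of 25 T and NK cell markers, 9 were well above background on all arrays, and Cd2, Cd247, Cd8a, Gzma, Il7r, Klrb1c, Klrd1 and Ncr1 on none. Their summed level was 9.85 to 52.9 with both fragments, 36.6 to 87.8 with p1-361 and 14.3 to 105.7 with p363-549, against 52.3 to 107.8 with VOID. Gzmb alone had a mean level of 0.149 with both fragments, 31.7 with p1-361 and 62.9 with p363-549, against 55.0 with VOID over the 13 arrays. Gzmb and Cd3d, a chain of the T cell receptor complex (-1.48 ± 0.19, adjusted p = 0.00128, and -0.81 ± 0.39 with 16 arrays, adjusted p = 0.438), were the 2 called there. Mast cell and basophil markers summed to 71.0 to 109.0 with both fragments against 109.2 to 144.0 with VOID, and erythroid and megakaryocyte markers to 333 to 501 against 431 to 665. The sums were 3.97 to 7.53 with both fragments against 4.94 to 7.12 with VOID for monocytes and macrophages, 58.4 to 76.5 against 63.6 to 105 for neutrophils, 2.11 to 3.24 against 2.54 to 2.96 for B cells and 5.6 to 7.92 against 6.47 to 9.64 for fibroblasts and endothelium. Whether the makeup of the cultures had a part in these results was not tested, and in bulk RNA fewer cells of a type cannot be told apart from less RNA per cell.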

How the data were processed

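The deposited files are 1-colour Agilent scanner outputs, in which the spot intensity is the processed signal, made by the authors with Feature Extraction 10.7.3.1, background-subtracted per the file headers. From these, log2 of the intensity less each array's 75th percentile was taken, control and uneven spots were left out, and spots of 1 probe were averaged. Of 39429 probes, 17377 were well above background on all 16 arrays, and a gene was read from whichever of its probes had the highest mean (13466 genes). The 2 × 2 interaction and each step were fitted with limma 3.58.1 in R 4.3.3, with Benjamini-Hochberg adjusted p-values over all 13466 genes and 0.05 as threshold, with all 16 arrays and without the 3 titled 22, 23 and 24. The test was tried on simulated data. Named genes were Rela, Abl1 and Bcr, all genes called with 16 arrays, the 6 highest and 6 lowest interactions called only with 13, up to 3 called genes of each list by smallest p, and 6 NF-kB feedback genes. Tnfaip2, Ccl4, Cish, Isg15, Oasl1, Mx2, Hbb-b2, Hbb-y, Itga2b, Tal1 and Mitf fall outside that rule and were chosen after their values were seen. The members and lists were chosen with earlier results of these data known. Alternatives changed the background correction, scaling, filter, slide block, probe rule and arrays included. The other 8 arrays (WT and D361E p65) entered only 1 alternative. Promoters are RefSeq's on GRCm38.p6, and probe places are mm9, per the file headers.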

Additional observations from a re-analysis of the deposited data

Results flagged for a closer look

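The effect of p363-549 with p1-361 present differed from that without it, by the test of the interaction itself, in 4 genes with 16 arrays: Cd200r2 (3.26), Ccdc80 (2.36), Igsf5 (-2.48) and Lyz1 (-2.32). With 13 arrays it differed in 913 genes.

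Of 64 groups of 4 arrays checked over 16 genes, 14 held 1 array far from the other 3 by Dixon's criterion, which chance meets in about 1 of 20 groups. That rate is no yardstick here, since 12 of the 16 genes were taken for being called only without the arrays titled 22, 23 and 24, and finding those arrays apart in them follows from that choice. In 13 of the 14 that array was titled 22, 23 or 24. The array titled 24, replicate 4 with both fragments, stood apart at -1.55 for Lyz1, -2.65 for Cxcr2, 5.37 for Gzmc, 5.21 for Gzmb, 3.63 for Fcer1g and 0.15 for A_55_P1953783. The array titled 23, replicate 4 of p363-549, stood apart at -2.82 for Crip2, -3.35 for Gzmc, -2.71 for Gzmb, -3.73 for Fcer1g, -3.05 for Dmpk and -3.42 for A_55_P1953783. The array titled 22, replicate 4 of p1-361, stood apart at 1.11 for Fcer1g. The one other was replicate 3 of p363-549, at -1.94 for Lpgat1. The cause of these distances was not tested.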

How the results depend on the processing

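With 16 arrays the count of genes with an interaction was 4. It was 13 with the spread taken from all 24 arrays, 2 with normexp, 22 with probes well above background in 1 group (14657 genes), 8 without a filter (30016 genes), 17 with the sets of title numbers as a block, 1 with slides as a fixed term, 1 with brightness as a covariate and 913 without the arrays titled 22, 23 and 24. Leaving out 1 array gave 1 (p1-361 replicate 1 and 6 other arrays) to 22 (p363-549 replicate 4), and 19 without replicate 4 of both fragments. With 13 arrays the count was 913. It was 1422 with the spread of 24 arrays, 261 with normexp, 399 without a filter, 3955 with the sets as a block, 14 with slides as a fixed term and 129 with brightness, 103 of them among the 913. Leaving out 1 array gave 260 (both fragments, replicate 1) to 3204 (both fragments, replicate 3). Array weights gave 6364 with 16 arrays and 6075 with 13, but that estimate did not converge and put a weight of 37.4 and 57.2 on replicate 1 of both fragments. The other settings stayed within 1.5 times of each count. Brightness, the settings with 13 arrays and list medians were added after seeing the data.

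Sign changes with 16 arrays were in feedback genes that were not called. Nfkbie was 0.059 with array weights. Birc3 was 0.0035 with normexp, 0.0030 with quantile normalization, 0.0096 with slide as a random block, 0.26 with brightness, 0.25 with array weights and 0.21 without the 3 arrays, and -0.22 to 0.20 when 1 array was left out. Tnfaip3 was 0.78 with array weights, 0.032 without the 3 arrays and -0.31 to 0.10 when 1 was left out. Nfkbia was 0.34 with brightness, 0.32 with array weights and -0.49 to 0.058 when 1 was left out. The labels give no replicate numbers, so no pairing by label was possible. The replicate numbers used here follow the order of the titles within each group. The sets of title numbers used as a block above are runs of 6 consecutive titles, which no label calls pairs. Causes of these changes were not tested.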

Other observations

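Among 22 erythroid and megakaryocyte genes, 2 lay above the sum and 5 below with 13 arrays, where no member was called with 16. The globins split in the sign of the interaction, though each of those called had its lowest mean with both fragments. Hbb-y, an embryonic globin, gave 1.59 ± 0.39 (SE, adjusted p = 0.0333, and 1.90 ± 0.62 with 16 arrays, adjusted p = 0.432). Its mean level with 13 arrays was -3.68 with both fragments, -3.30 with p1-361 and -2.03 with p363-549, against -0.06 with VOID. The 2 single changes of Hbb-y would add up to a level below the lowest shown here, as for Cd200r2. Whether the low end of the arrays' range had a part in its positive sign was not tested. In limma's fit Hbb-bh1 gave -2.88 ± 0.46 (adjusted p = 0.00490, and -1.16 ± 1.08 with 16 arrays, adjusted p = 0.632), Hbb-bt -1.99 ± 0.39 (adjusted p = 0.0138, and -1.14 ± 1.13 with 16 arrays, adjusted p = 0.653) and Hbb-b2 -1.38 ± 0.35 (adjusted p = 0.0392, and -0.43 ± 1.15 with 16 arrays, adjusted p = 0.889). On the linear scale Hbb-bh1 was negative with 13 arrays, at -18.2% of the VOID level, and positive with 16, at 7.56%. Hbb-bt and Hbb-b2 are close copies, and their probes may not tell them apart. Epor, the erythropoietin receptor, gave 0.77 ± 0.17 (adjusted p = 0.0232, and 0.50 ± 0.22 with 16 arrays, adjusted p = 0.432). Itga2b, a platelet integrin, gave -1.17 ± 0.31 (adjusted p = 0.0452, and -0.93 ± 0.29 with 16 arrays, adjusted p = 0.432), and Tal1, a blood stem and erythroid factor, gave -0.78 ± 0.20 (adjusted p = 0.0383, and -0.61 ± 0.19 with 16 arrays, adjusted p = 0.432). The summed level of the list, in multiples of the array's 75th percentile, ran from 333 to 501 with both fragments, 395 to 509 with p1-361 and 436 to 553 with p363-549, against 431 to 665 with VOID, and Alas2 and Car2 were well above background on no array.

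Of 7 mast cell and basophil markers, Hdc, which makes histamine (0.92 ± 0.20, adjusted p = 0.0234, and 0.58 ± 0.26 with 16 arrays, adjusted p = 0.432), and Mitf, a lineage factor (1.20 ± 0.30, adjusted p = 0.0346, and 0.99 ± 0.27 with 16 arrays, adjusted p = 0.432), lay above the sum and Cma1 and Fcer1g below it. The Cma1 level was -2.61, -2.66, -2.99 and 1.79 with both fragments, 2.07, 2.98, 2.33 and 0.85 with p1-361, and 0.97, 1.55, 1.87 and -3.69 with p363-549, against 2.49, 3.67, 4.14 and 3.57 with VOID. The 3 both-fragment arrays and the array titled 23 were far below the rest. Kit, Ms4a2, Hpgds and Mrgprb2 were well above background on no array. The summed level was 71.0 to 109 with both fragments, 93.9 to 129.9 with p1-361 and 79.0 to 111 with p363-549, against 109 to 144 with VOID.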
